A study of Rattus norvegicus with 29 samples.

Results

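Pain minus baseline is the comparison of 5 arrays of rat basolateral amygdala taken 6 h after pain with 9 baseline arrays of the same tissue, chosen by sample title. It uses 14 of the 29 arrays of a study of fear conditioning and isoflurane, an inhaled anaesthetic. Each array reports fluorescence from short DNA probes grouped into probe sets, and values below are log2 signals after quantile normalization unless stated. The other arrays follow conditioning, conditioning under isoflurane and isoflurane alone, with 5 arrays each, all at 6 h.

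The pain arrays carry rat numbers 9 to 13, and the labels do not say what caused the pain. The baseline group has no treatment, time or rat number, and its arrays are not stated to be separate animals, so p-values measure the spread between arrays, which may in part be technical. Strain, sex and age are not given in the sources used here. The labels name a labelling kit for the baseline and isoflurane arrays and none for the pain arrays, so kit and group cannot be told apart in pain minus baseline.

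The basolateral amygdala is a set of nuclei dominated by excitatory projection neurons with scattered GABAergic interneurons, and it links sensory cues to aversive events. Pain activates the hypothalamic axis that releases corticosterone, which enters the brain and acts through the glucocorticoid and mineralocorticoid receptors on target genes such as Fkbp5. Strong neuronal activity also induces the immediate early genes, Fos and Arc among them, whose transcripts usually decay within hours. Globin transcripts in brain tissue come largely from red cells in its vessels, with smaller amounts reported in neurons and glia.

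Markers of the named tissue were present on both groups of arrays. The vesicular glutamate transporter gene Slc17a7 had a median of 11.51 on pain arrays and 11.70 on baseline arrays, and the GABA-synthesis gene Gad1 one of 11.90 on pain arrays and 11.79 on baseline arrays. Drd2, a receptor of neighbouring striatum, reached 8.66 on pain arrays and 9.10 on baseline arrays. The hypothalamic peptide Avp reached 7.81 on pain arrays and 10.21 on 1 baseline array. Ttr, made by choroid plexus, had a median of 7.77 on pain arrays and 7.49 on baseline arrays, with 1 baseline array at 13.88. Kl, another choroid plexus gene, was at the signal floor of 16 in the median pain and the median baseline array.

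One pain array stood apart from the other 28. Pain replicate 3 had a median deposited signal of 292.2, against 226.5 to 244.1 on the other pain arrays and 210.7 to 247.75 on the baseline arrays. Its mean correlation with all other arrays was 0.906, while the lowest value among the rest was 0.950. The highest correlation between any 2 arrays was 0.977, so no array was a copy of another. Leading results are therefore given with all 5 pain arrays and without pain replicate 3.

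**Figure D1:**
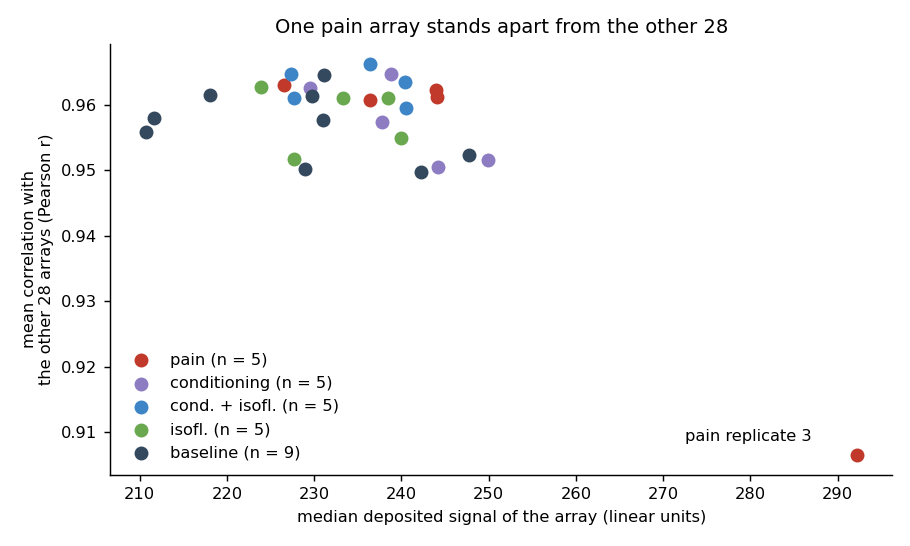
Each point is 1 of the 29 arrays, with its median deposited signal in linear units on the horizontal axis and its mean Pearson correlation with the other 28 arrays on the vertical axis, coloured by group. Pain replicate 3 lies alone at a median of 292.2 and a correlation of 0.906.

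No transcript differed between pain and baseline past the threshold, an adjusted p of 0.05 with limma and Benjamini-Hochberg adjustment over 9520 probe sets. The lowest adjusted p was 0.0704, shared by Epb41, Hbb and 3 probe sets that each match several globin genes, all lower after pain. At an unadjusted p under 0.05 there were 853 probe sets (8.96% of those tested), 412 higher (4.33%) and 441 lower (4.63%) after pain, and 476 is the number that a threshold of 0.05 allows by itself. Without pain replicate 3 these were 489 (5.14%), 260 higher (2.73%) and 229 lower (2.41%), and the lowest adjusted p was 0.370 in the limma fit.

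The standard error of pain minus baseline had a median of 0.127 with all pain arrays and 0.132 without pain replicate 3. The median difference over all probe sets was -0.0025. The number of arrays, 5 and 9, limits this precision.

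Signal at the beta-globin probe set of Hbb was lower on every pain array than on every baseline array. Hbb encodes the beta chain of haemoglobin, and its probe set had signals of 10.78, 10.88, 10.21, 10.91 and 10.75 on the pain arrays, against a lowest, median and highest value of 11.05, 11.90 and 12.61 on the baseline arrays. The pain arrays lay within a narrow band apart from replicate 3, while the baseline arrays spread over more than 1 log2 unit. The difference was -1.19 (SE 0.24, 95% interval -1.69 to -0.70, limma adjusted p 0.0704), a fold of 0.437. Without pain replicate 3 it was -1.07 (limma adjusted p 0.370).

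Hbb also varied within the baseline group, whose replicates 1 to 5 averaged 11.52 and whose replicates 6 to 9 averaged 12.38. The highest pain array, 10.91, was still below the lowest baseline array. Hbb passed the threshold without baseline replicate 3 (-1.30, limma adjusted p 0.0130) or baseline replicate 4 (-1.25, limma adjusted p 0.0486). Those arrays had the lowest Hbb signals of the baseline group (11.05 and 11.43), so leaving either out widens the difference. Leaving out baseline replicate 6, 7, 8 or 9 did not bring Hbb past the threshold. The lowest limma adjusted p of any leading gene was then 0.172, 0.153, 0.163 and 0.163 in that order. Against baseline replicates 6 to 9 alone Hbb differed by -1.67 (limma adjusted p 0.00185), and against replicates 1 to 5 alone by -0.81 (limma adjusted p 0.968). Beta-globin copies are near-identical in sequence, and signal at this probe set may be shared between them.

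Other globin probe sets gave the same direction. A further 5 probe sets, picked out after their values were seen, match more than 1 globin gene each and are not named for any. Their differences were -1.15, -1.17, -1.35, -2.12 and -0.80 with all pain arrays, with limma adjusted p-values of 0.0704, 0.0704, 0.0905, 0.0704 and 0.346. The differences ran from -1.96 to -0.86 without pain replicate 3. With all pain arrays, every pain array was below every baseline array in those at -1.15 and -2.12, and the rest overlapped. The alpha-globin gene Hba-a3 differed by -0.68, and by -0.35 without pain replicate 3 (limma adjusted p 0.473 with all arrays).

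A transcript of the red-cell membrane was lower too. Epb41 encodes protein 4.1, which ties spectrin and actin to the red-cell membrane and is also made in neurons. Its signals were 7.10, 7.04, 6.69, 6.21 and 7.25 on the pain arrays, against 7.28, 7.53 and 7.84 as lowest, median and highest on the baseline arrays. No pain array reached the lowest baseline array, and replicate 4 was the lowest of the pain arrays. The difference was -0.71 (SE 0.14, limma adjusted p 0.0704), and -0.68 without pain replicate 3. It passed without baseline replicate 4 (-0.74, limma adjusted p 0.0486), an array below the baseline mean, whose removal widens the difference. A second, dimmer Epb41 probe set below the signal filter differed by -0.35.

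Alas2, the erythroid enzyme that starts haem synthesis, was below the signal filter and was not tested. Its signals averaged 6.34 (SD 0.22, n = 5) on pain arrays and 7.19 (SD 1.31, n = 9) on baseline arrays. The pain arrays, from 6.08 to 6.63, lay within the baseline range of 4.75 to 8.40. Alas1, the housekeeping form of the same enzyme, differed by -0.59, and by -0.22 without pain replicate 3, where its signal was 6.30 against 8.00 to 8.27 on the other pain arrays. Of 12 tested genes on the globin, haem and red-cell list, 6 were higher and 6 lower after pain, with a median of -0.01. Of these, 4 were lower and 0 higher at unadjusted p under 0.05, beside 4.72% lower and 4.26% higher over 7049 genes. The count was 2 without pain replicate 3, Hbb and Epb41, beside 2.54% lower and 2.7% higher over all genes.

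The mean level of the list was 8.64 to 9.23 on the pain arrays, or 9.05 to 9.23 without replicate 3, and 9.14 to 9.54 on the baseline arrays. In tissue samples such as these, fewer cells of a type and less RNA per cell cannot be told apart. The part of blood content in the difference of Hbb was not tested.

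The sequences just upstream of 3 of these genes are shown because developing red cells are known to drive globin and haem genes through short motifs there. They are 250 bases before the annotated start from RefSeq on the GRCr8 build, in lower case with searched motifs in capitals. These are the CACCC box as CACACCC, the GATA motif as AGATAA and the CCAAT box as CCAAT, each on both strands. The Hbb region is chr1:167663722-167663971 on the minus strand, the Alas2 region chrX:22895200-22895449 on the plus strand and the Epb41 region chr5:149521994-149522243 on the minus strand.
Hbb: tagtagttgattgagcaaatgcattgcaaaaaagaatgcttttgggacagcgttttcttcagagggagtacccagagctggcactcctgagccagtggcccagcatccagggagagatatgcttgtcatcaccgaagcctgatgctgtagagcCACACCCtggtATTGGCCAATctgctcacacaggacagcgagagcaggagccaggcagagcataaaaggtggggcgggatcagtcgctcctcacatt
Alas2: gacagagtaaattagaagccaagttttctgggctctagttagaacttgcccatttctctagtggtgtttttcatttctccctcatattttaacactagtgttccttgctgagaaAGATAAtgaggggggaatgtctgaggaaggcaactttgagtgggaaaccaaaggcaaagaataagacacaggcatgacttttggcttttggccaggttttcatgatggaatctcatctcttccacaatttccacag
Epb41: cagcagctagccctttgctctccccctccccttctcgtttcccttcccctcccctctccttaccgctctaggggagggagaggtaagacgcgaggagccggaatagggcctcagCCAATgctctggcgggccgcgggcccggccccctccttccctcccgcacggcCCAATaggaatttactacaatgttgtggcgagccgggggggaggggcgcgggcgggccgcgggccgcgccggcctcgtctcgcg

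Counted from the start site, Hbb holds CACACCC from -97 to -91 and CCAAT from -81 to -77, and a CCAAT on the opposite strand from -86 to -82, next to the first. Alas2 holds AGATAA from -136 to -131. Epb41 holds CCAAT from -136 to -132 and from -84 to -80. Among 33469 RefSeq promoters of the same length, 6.12% hold CACACCC, 10.3% AGATAA and 34.0% CCAAT. These are matches of letters and not shown binding sites.

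Trappc8, also among the lower genes with the lowest p, encodes a subunit of the TRAPP III tethering complex used in secretion and autophagy. Its signals were 8.22, 8.19, 7.08, 8.32 and 8.36 on the pain arrays, against 8.34, 8.78 and 9.05 as lowest, median and highest on the baseline arrays. Pain replicate 3 lay more than 1 log2 unit below the other pain arrays, and 1 pain array overlapped the lowest baseline array. The difference was -0.73 (SE 0.15, limma adjusted p 0.0818) and -0.49 without pain replicate 3 (limma adjusted p 0.370).

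Cog2 encodes a subunit of the conserved oligomeric Golgi complex, which tethers vesicles at the Golgi. Its signals were 7.75, 7.87, 7.62, 8.10 and 7.72 on the pain arrays, against 8.16, 8.25 and 8.44 on the baseline arrays, with no overlap. It differed by -0.46 (SE 0.11, limma adjusted p 0.148), and by -0.42 without pain replicate 3, so this gene rested little on that array.

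Arfgap1 encodes a GTPase-activating protein of Golgi coat assembly, and Evi5l one related to Rab regulators. Arfgap1 differed by -0.59 and Evi5l by -0.58 (limma adjusted p 0.287 for Arfgap1 and 0.303 for Evi5l). In both, pain replicate 3 was the lowest array, and without it both differed by -0.37. The other tested Arfgap1 probe sets differed by 0.28 and -0.08.

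Of 47 tested genes of membrane trafficking and tethering, 16 were higher and 31 lower, with a median of -0.05 beside -0.0039 over all 7049 genes, of which 51.3% were lower. At unadjusted p under 0.05, 3 were lower (Trappc8, Vps39 and Exoc6) and 1 higher (Gosr2, a Golgi SNARE), beside 4.72% lower and 4.26% higher over all genes. Vps39, of the HOPS tethering complex, differed by -0.44, and by -0.19 without pain replicate 3. Exoc6, of the exocyst, differed by -0.54, and by -0.14 without that array. With that array left out, 1 of the 47 genes, Trappc8, was lower at unadjusted p under 0.05, beside 2.54% of all genes. Cog2, Arfgap1 and Evi5l are not on this list.

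**Figure D2:**
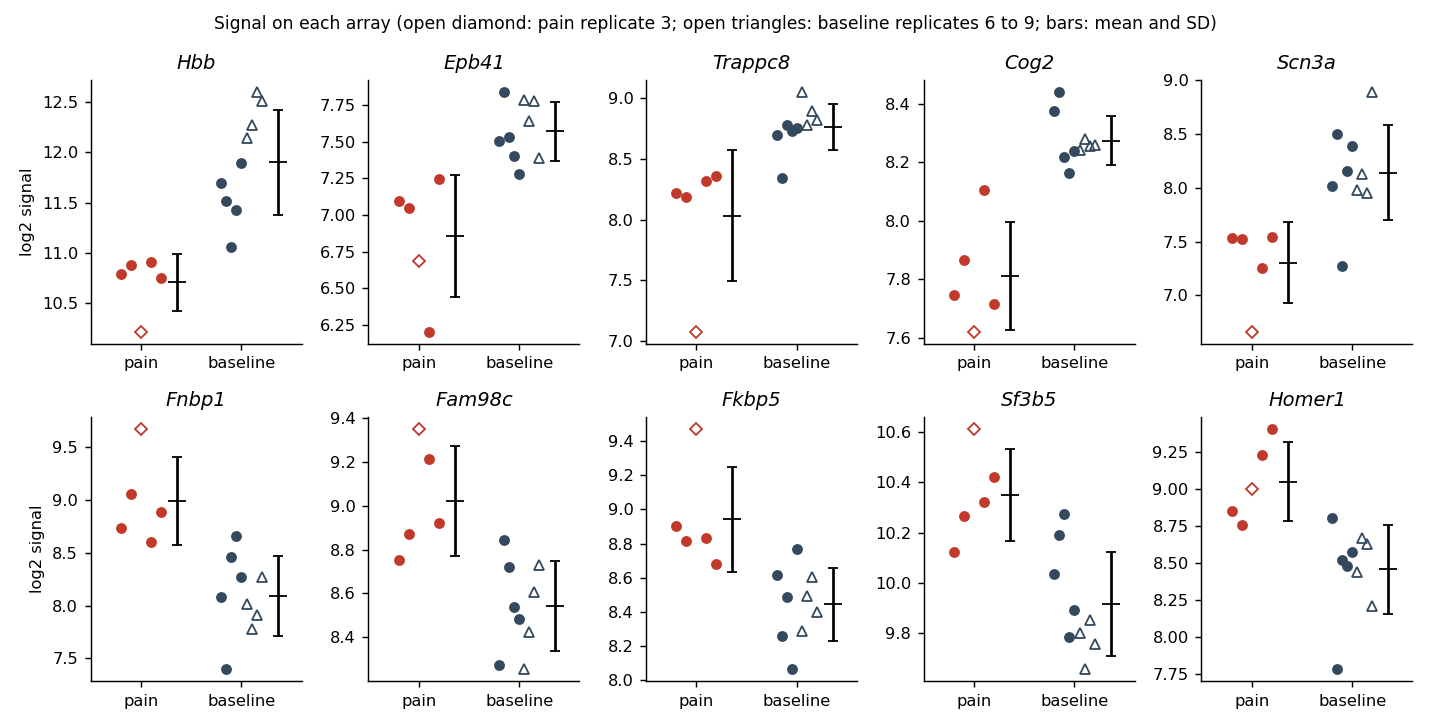
Log2 signal on each pain array (left) and baseline array (right) for 10 of the genes with the lowest p, with the mean and SD beside the points. The Hbb, Epb41 and Cog2 pain points lie below every baseline point, and in Trappc8 and Fkbp5 pain replicate 3, the open diamond, lies far from the other pain arrays.

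Scn3a encodes a voltage-gated sodium channel that is prominent in developing neurons. Its signals were 7.53, 7.52, 6.66, 7.26 and 7.54 on the pain arrays, against 7.27, 8.13 and 8.89 as lowest, median and highest on the baseline arrays. Baseline replicate 3, the lowest of its group, sat within the pain range, and the other baseline arrays were above it. The difference was -0.84 (SE 0.20, limma adjusted p 0.160) and -0.69 without pain replicate 3. It passed without baseline replicate 3 (-0.95, limma adjusted p 0.0189), and leaving out the lowest baseline array widens the difference by itself.

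Kcnd3, which carries A-type potassium current, differed by -0.76 (limma adjusted p 0.404) and by -0.60 without pain replicate 3. Cacnb1, a calcium channel beta subunit, differed by -0.58, and by -0.22 without that array. Kcnc2, of fast-spiking interneurons, differed by -0.27, and Scn2a, of projection neuron axons, by -0.28. Of 28 tested voltage-gated channel genes, 13 were higher and 15 lower, with a median of -0.01, and 5 were lower at unadjusted p under 0.05, beside 4.72% of all genes. The count was 2 without pain replicate 3, beside 2.54% of all genes. The median was 0.06 without that array and also 0.06 with the deposited scaling of all arrays.

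Synaptic genes showed no common direction. The scaffold gene Homer1, which binds metabotropic glutamate receptors and whose short form is induced by activity, had signals of 8.85, 8.76, 9.00, 9.23 and 9.40 on the pain arrays. The baseline arrays gave 7.78, 8.52 and 8.80 as lowest, median and highest, and 1 pain array lay within their range. This probe set differed by 0.59 (SE 0.16, limma adjusted p 0.346), and by 0.61 without pain replicate 3, the only leading higher gene whose difference was not smaller. The brightest Homer1 probe set differed by -0.01, another tested one by -0.17, and 2 below the filter by -0.91 and 0.17, so the probe sets of the gene disagree.

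Grin2a, an NMDA receptor subunit, had signals of 7.87, 8.22, 8.89, 7.49 and 7.60 on the pain arrays, against 6.86, 7.18 and 7.89 on the baseline arrays. It differed by 0.74 (SE 0.34, limma adjusted p 0.524), and by 0.52 without pain replicate 3. Grm8, a presynaptic metabotropic receptor, differed by 0.56, and by 0.29 without that array. Of 22 tested glutamate receptor and scaffold genes, 11 were higher and 11 lower, 2 of them higher at unadjusted p under 0.05, beside 4.26% of all genes. That count was 0 without pain replicate 3.

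Of 24 genes of vesicle release, 15 were higher and 9 lower. The active zone gene Pclo differed by -0.61, but by -0.24 without pain replicate 3, in which its signal was 6.04 against 7.70 to 8.10 on the other pain arrays. Of 15 genes of GABA and glycine transmission 7 were higher, and Glra2, a glycine receptor subunit, differed by -0.42 and by -0.46 without pain replicate 3. Camk2d, a calcium-calmodulin kinase, differed by -0.29 (limma adjusted p 0.346), and by -0.24 without that array. Kif3c, a kinesin motor, differed by -1.09 (limma adjusted p 0.346), and by -0.67 without pain replicate 3. It averaged 7.39 on baseline replicates 1 to 5 and 8.37 on replicates 6 to 9, against a pain mean of 6.73.

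Among stress-hormone genes, Fkbp5 had the lowest p. It encodes an HSP90 co-chaperone that lowers the hormone affinity of the glucocorticoid receptor and is itself induced by corticosterone. Its signals were 8.90, 8.82, 9.47, 8.83 and 8.68 on the pain arrays, against 8.07, 8.49 and 8.77 as lowest, median and highest on the baseline arrays. In 4 of 5 pain arrays it was above every baseline array, and replicate 3 was the highest. The difference was 0.50 (SE 0.13, 95% interval 0.24 to 0.75, limma adjusted p 0.303), and 0.37 without pain replicate 3.

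The receptors differed little. The glucocorticoid receptor gene Nr3c1 differed by 0.06 (95% interval -0.14 to 0.25) and the mineralocorticoid receptor gene Nr3c2 by -0.07 (-0.29 to 0.15). Other known targets were also close to 0, with Sgk1 at -0.03 and Tsc22d3, which encodes GILZ, at 0.03. Klf9, a transcription factor induced by corticosterone, had signals of 10.97, 10.94, 10.77, 10.91 and 10.84 on the pain arrays, against 10.39, 10.64 and 10.94 on the baseline arrays. It differed by 0.22 and, without pain replicate 3, by 0.25. Sult1a1, a sulfotransferase, differed by 0.61 and, without pain replicate 3, by 0.62.

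Of 17 tested glucocorticoid-responsive genes, 14 were higher, with a median of 0.14, and 15 were higher without pain replicate 3, with a median of 0.17. Over all genes 48.7% were higher with all arrays and 50.6% without pain replicate 3. At unadjusted p under 0.05, 4 were higher with all arrays (Fkbp5, Sult1a1, S100b and Klf9) and 4 without pain replicate 3, and 0 lower. Over all genes 4.26% were higher at that p with all arrays and 2.7% without pain replicate 3. After adjustment 0 passed. Centring each array on its median put the list median at -0.03, where that of all probe sets was -0.11. Of 11 tested genes of receptor machinery and the CRH system, 9 were higher with a median of 0.06, and Crhbp, the CRH-binding protein, differed by 0.25. Crh itself and Per1 were below the signal filter.

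Immediate early genes were near the mean of all 9 baseline arrays at 6 h. Fos had signals of 6.71, 7.89, 8.40, 7.36 and 8.70 on the pain arrays, against 6.18, 7.87 and 9.21 as lowest, median and highest on the baseline arrays, and the groups overlapped throughout. It differed by -0.14, with a 95% interval of -0.87 to 0.59 that leaves room for a change of either sign. Intervals were narrower for Egr1 (-0.14, from -0.38 to 0.10), Arc (0.01, from -0.32 to 0.35), Nr4a1 (-0.11, from -0.42 to 0.19) and Junb (-0.11, from -0.37 to 0.16). The baseline group itself was split in Fos and Arc. Fos averaged 8.44 on baseline replicates 1 to 5 and 7.34 on replicates 6 to 9, with the pain mean of 7.81 between them. Arc averaged 9.55 and 8.90 on the same baseline arrays, with the pain mean of 9.28 between them. Egr1 (10.73 and 10.69) and Junb (8.78 and 8.95) were split less. The orphan receptor Nr4a3 differed by 0.39 (limma adjusted p 0.524), and by 0.38 without pain replicate 3.

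Among activity-regulated effectors, the neurotrophin Bdnf differed by -0.34 (95% interval -0.81 to 0.13), and by -0.17 without pain replicate 3. Its receptor Ntrk2 differed by 0.29, and by 0.31 without that array. Of 14 tested activity-regulated transcription factors 7 were higher, and of 12 effectors 7 were higher. Fosb was below the signal filter.

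Neuropeptides of interneurons and of the opioid system also sat near baseline. Npy differed by 0.03 (95% interval -0.26 to 0.31), Sst by -0.20 (-0.55 to 0.14), Cck by -0.13 (-0.48 to 0.21) and the enkephalin precursor Penk by 0.07 (-0.64 to 0.79). Penk ran from 11.65 to 13.11 on pain arrays and 10.84 to 13.26 on baseline arrays. Of 3 tested opioid genes 2 were higher, and Pdyn, Oprk1 and Oprm1 were below the filter. Galanin, Gal, differed by 0.39 (limma adjusted p 0.619). Of 19 tested other neuropeptide genes and their receptors 9 were higher.

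The higher genes with the lowest p came from several processes. Fnbp1 encodes an F-BAR protein that bends membranes and recruits actin, and its probe set had 8.73, 9.06, 9.67, 8.60 and 8.89 on the pain arrays, against 7.40, 8.08 and 8.66 on the baseline arrays. It differed by 0.90 (SE 0.21, limma adjusted p 0.148), and by 0.73 without pain replicate 3. A brighter Fnbp1 probe set differed by -0.39, and 4 below the filter by -0.28, -0.15, -0.04 and 0.51, so the probe sets disagree in direction.

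P2rx6, an ATP-gated channel subunit, had signals of 7.67, 7.79, 8.26, 7.45 and 7.83 on the pain arrays, against 6.42, 7.09 and 7.61 on the baseline arrays. It differed by 0.69 (limma adjusted p 0.303), and by 0.58 without pain replicate 3. Fam98c had 8.75, 8.87, 9.35, 9.21 and 8.92 on the pain arrays, against 8.26, 8.54 and 8.84 on the baseline arrays. It differed by 0.48 and, without replicate 3, by 0.40. Sf3b5, a subunit of the splicing factor SF3b, differed by 0.43 and, without replicate 3, by 0.37.

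Park7 encodes DJ-1, a protein protective under oxidative stress, and had signals of 11.42, 11.36, 11.63, 11.27 and 11.44 on the pain arrays, against 10.98, 11.11 and 11.37 on the baseline arrays. It differed by 0.26 (SE 0.07, limma adjusted p 0.346), and by 0.21 without pain replicate 3. Nxn, a thioredoxin relative, differed by 0.35, and Txnip, a thioredoxin inhibitor, by 0.44. Nxn differed by 0.31 and Txnip by 0.35 without pain replicate 3. A dimmer Nxn probe set differed by -0.22.

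Of 26 tested antioxidant and glutathione genes, 20 were higher with a median of 0.11, and 19 with a median of 0.10 without pain replicate 3. At unadjusted p under 0.05, 4 were higher and 1 lower, beside 4.26% higher and 4.72% lower over all genes. Without pain replicate 3 these were 2 and 1, beside 2.7% and 2.54%. Park7, Nxn and Txnip are not on this list. Gsta1, a glutathione transferase, differed by 0.36 and Cat, the hydrogen peroxide enzyme catalase, by 0.29. Txn1, thioredoxin, differed by -0.16. With median-centred arrays the list median was -0.02, above the -0.11 of all probe sets. Cbs, a transsulfuration enzyme found in astrocytes, differed by 0.76, and by 0.60 without pain replicate 3. It averaged 10.19 on baseline replicates 1 to 5 and 9.31 on replicates 6 to 9, against a pain mean of 10.55.

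Pla1a, a phospholipase, differed by 0.63, Fxyd5, a sodium pump regulator, by 0.63, and Nid2, a basement membrane protein, by 0.53. These were 0.47, 0.50 and 0.39 without pain replicate 3. Cyp26b1, which degrades retinoic acid, had signals of 8.74, 8.34, 8.66, 7.84 and 8.43 on the pain arrays, against 6.58, 7.51 and 8.29 on the baseline arrays. It differed by 0.82 (limma adjusted p 0.490), and by 0.76 without pain replicate 3.

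Among the remaining lower genes, Ppp1r18, a regulatory subunit of phosphatase 1, differed by -0.73, Gpsm2, a spindle orientation protein, by -0.77, and Xab2, a splicing and repair factor, by -0.66. In that order they differed by -0.63, -0.58 and -0.46 without pain replicate 3. Without pain replicate 4, Ppp1r18 (limma adjusted p 0.00451) and Xab2 (-0.86, limma adjusted p 0.0441) passed. Replicate 4 was the highest pain array in both genes, so leaving it out widens the difference. Ppp1r18 had 6.34, 6.89, 6.37, 7.86 and 6.32 on the pain arrays, against 6.96, 7.58 and 7.80 on the baseline arrays, so replicate 4 alone was above the baseline range. Raly, an RNA-binding protein, differed by -0.62 and Ube2q2, a ubiquitin-conjugating enzyme, by -0.28. These were -0.54 and -0.26 without pain replicate 3.

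Some of the largest differences came mainly from pain replicate 3. Bysl, a ribosome assembly factor, had signals of 8.91, 8.45, 4.00, 8.58 and 8.69 on the pain arrays, where 4.00 is the floor, against 8.40, 8.75 and 8.92 on the baseline arrays. Its difference of -0.98 became -0.05 without that array. Dmap1, a chromatin protein, was also at the floor there, and its difference of -1.09 became -0.43. Sepsecs, an enzyme of selenocysteine synthesis, kept its size, with -1.22 and -1.29 without pain replicate 3.

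Across the 24 genes with the lowest p, 12 higher and 12 lower, the difference was smaller without pain replicate 3 in 11 of the 12 higher and 12 of the 12 lower genes. That array was the most extreme pain array in 11 of the 12 higher and 9 of the 12 lower genes. All 24 kept their direction without it. The 24 were chosen for their low p on these same arrays, so these counts are a description. The limma adjusted p-values then ran from 0.370 to 0.911. Against baseline replicates 6 to 9 alone 12 of the 24 passed the adjusted threshold in limma, beside 160 of all 9520 probe sets. Against replicates 1 to 5 alone 0 did, and 0 of all probe sets. With median-centred arrays 4 passed, Epb41, Hbb, Trappc8 and Ube2q2, beside 10 of all 9520 probe sets, all lower.

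**Figure D3:**
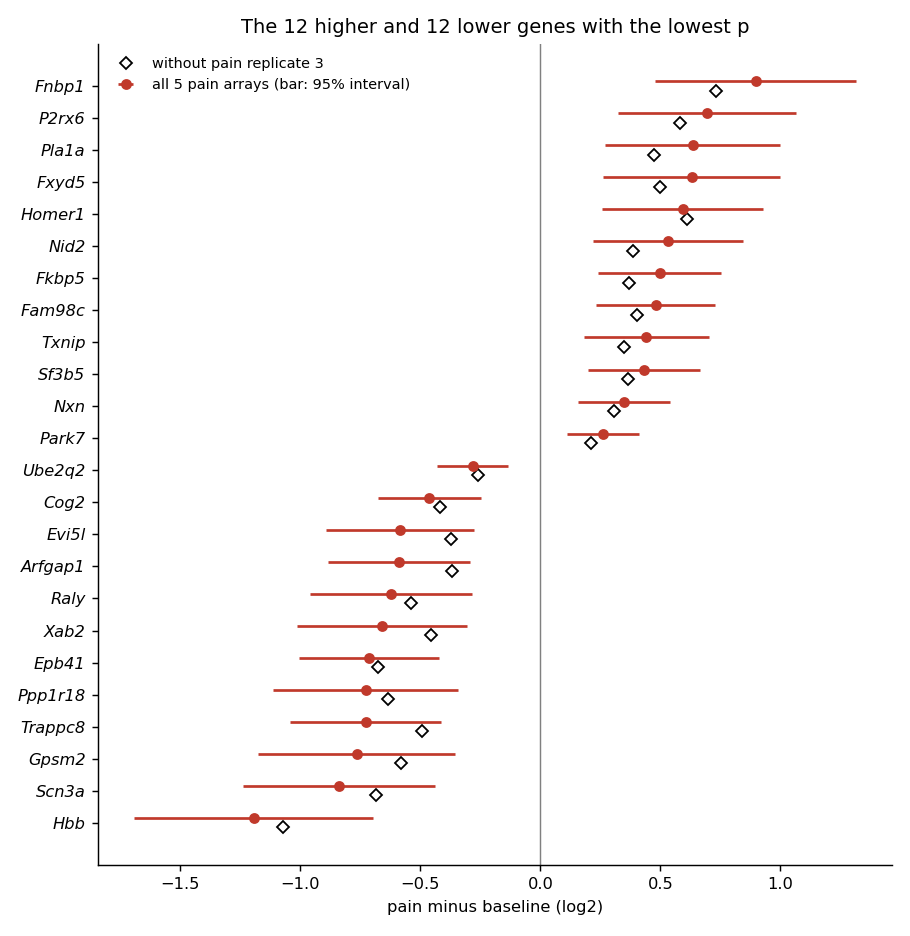
Pain minus baseline on the log2 scale for the 12 higher and 12 lower genes with the lowest p, with 95% intervals for all 5 pain arrays (points) and the value without pain replicate 3 (open diamonds). The diamonds lie nearer 0 than the points in 23 of 24 genes, Homer1 being the exception.

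A further count asks which probe sets separate the groups on every array. The 5 pain arrays lay above all 9 baseline arrays in 3 probe sets (0.0315%) and below all 9 in 8 (0.084%). Without any difference between groups, 1 of the 2002 ways to choose the 5 arrays separates them fully in a given direction. Both shares are of that order. The lower ones were Hbb, Epb41, Cog2, 2 matching several globin genes, 1 unnamed, Ppfia1 and Sipa1l2. Ppfia1, a liprin scaffold of active zones, differed by -0.56 and Sipa1l2, a postsynaptic Rap regulator, by -0.35. The higher ones were Selenbp1 (0.31), Ptpn2, a tyrosine phosphatase (0.21), and 1 unnamed. Ppfia1, Sipa1l2, Selenbp1 and Ptpn2 are named after their values were seen. Their limma adjusted p-values were 0.346, 0.346, 0.443 and 0.473 in that order.

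Of 20 tested astrocyte genes 17 were higher, with a median of 0.11, and 16 were higher without pain replicate 3, with the same median. At unadjusted p under 0.05, 5 were higher (Gja1, S100b, Gjb6, Apoe and Ntsr2) and 0 lower, beside 4.26% higher over all genes. The count higher was 3 without pain replicate 3, beside 2.7% over all genes. Gjb6, a gap junction protein, differed by 0.46 and Gja1, the main astrocyte connexin, by 0.18. The mean level of the list was 11.28 to 11.54 on pain arrays and 11.08 to 11.42 on baseline arrays, so the groups overlapped. The median was 0.04 with the deposited scaling and -0.09 with arrays centred on their medians. Over all probe sets it was 0.01 and -0.11 in that order.

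The microglial and immune list rested on pain replicate 3. Of 16 tested genes, 15 were higher with a median of 0.09, but 8 with a median of 0.0050 without pain replicate 3. Aif1, a microglial calcium-binding protein, had 8.22, 8.67, 9.25, 8.22 and 8.12 on the pain arrays, against 7.78, 8.04 and 8.43 on the baseline arrays. Of 16 oligodendrocyte genes 8 were higher with a median of -0.0066, and 5 with a median of -0.06 without pain replicate 3. The cytokine gene Il1b was below the filter. Of 7 tested cytokine and inflammation genes 4 were higher, and Nfkb1 differed by -0.52, or by -0.31 without that array.

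Vascular, pericyte and meningeal genes were higher in 9 of 13, with a median of 0.13, and of 0.25 with the deposited scaling. Ptgds, a prostaglandin synthase of meninges and glia, had 13.57, 10.47, 11.13, 10.59 and 12.07 on the pain arrays, against 9.87, 10.24 and 11.95 on the baseline arrays, so 2 pain arrays carried most of it. Choroid plexus genes were higher in 2 of 6, with a median of -0.16. That median was -0.35 against baseline replicates 1 to 5 alone and 0.19 against replicates 6 to 9 alone. Baseline replicate 1 had a list level of 10.57, against 8.07 to 8.56 on the other baseline arrays. Striatal genes were lower in 9 of 11 with a median of -0.13, or -0.14 without pain replicate 3. Their list level was 9.00 to 9.72 on pain arrays and 9.07 to 10.30 on baseline arrays, and the part of dissection was not tested. Against baseline replicates 6 to 9 alone the striatal median was 0.00099.

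Of 12 circadian clock genes 9 were lower with a median of -0.13, or -0.09 without pain replicate 3. The repressor Per2 had 8.91, 8.60, 6.93, 9.11 and 8.85 on the pain arrays, against 8.71, 8.99 and 9.20 on the baseline arrays. Its difference of -0.45 became -0.06 without replicate 3, whereas Nr1d1, the repressor REV-ERB alpha, differed by -0.29 and -0.27. The clock hour of sampling is not given in the sources used here.

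Of 39 cytosolic ribosomal protein genes 30 were higher with a median of 0.07, 7 of them at unadjusted p under 0.05, beside 4.26% of all genes. Without pain replicate 3, 26 were higher with a median of 0.03, 2 of them at that p, beside 2.7% of all genes, and with the deposited scaling the median was -0.0034. Of 26 heat shock and chaperone genes 19 were higher with a median of 0.04. Of 46 oxidative phosphorylation genes 17 were higher with a median of -0.02, and 23 without pain replicate 3. Cholesterol synthesis genes were lower in 11 of 18, with Scap, the sterol sensor escort, at -0.27 and Insig1, its retention partner, at -0.20. With pain replicate 3 left out, 0 of those 18 were at unadjusted p under 0.05, and 3 were lower with all arrays, beside 4.72% of all genes. Among the other lists, 26 of 45 actin and membrane curvature genes were higher with a median of 0.02, or -0.02 with the deposited scaling, and 14 of 35 kinase, phosphatase and CREB genes with a median of -0.04. Of 17 glycolysis genes 10 were higher. Of 9 excitatory projection neuron genes 2 were higher with a median of -0.04, but 6 with a median of 0.04 without pain replicate 3. Of 6 hypothalamic and thalamic genes 2 were higher with a median of -0.09, which was 0.03 with the deposited scaling. In none of the 30 lists did a member pass the adjusted threshold (0 members).

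**Figure D4:**
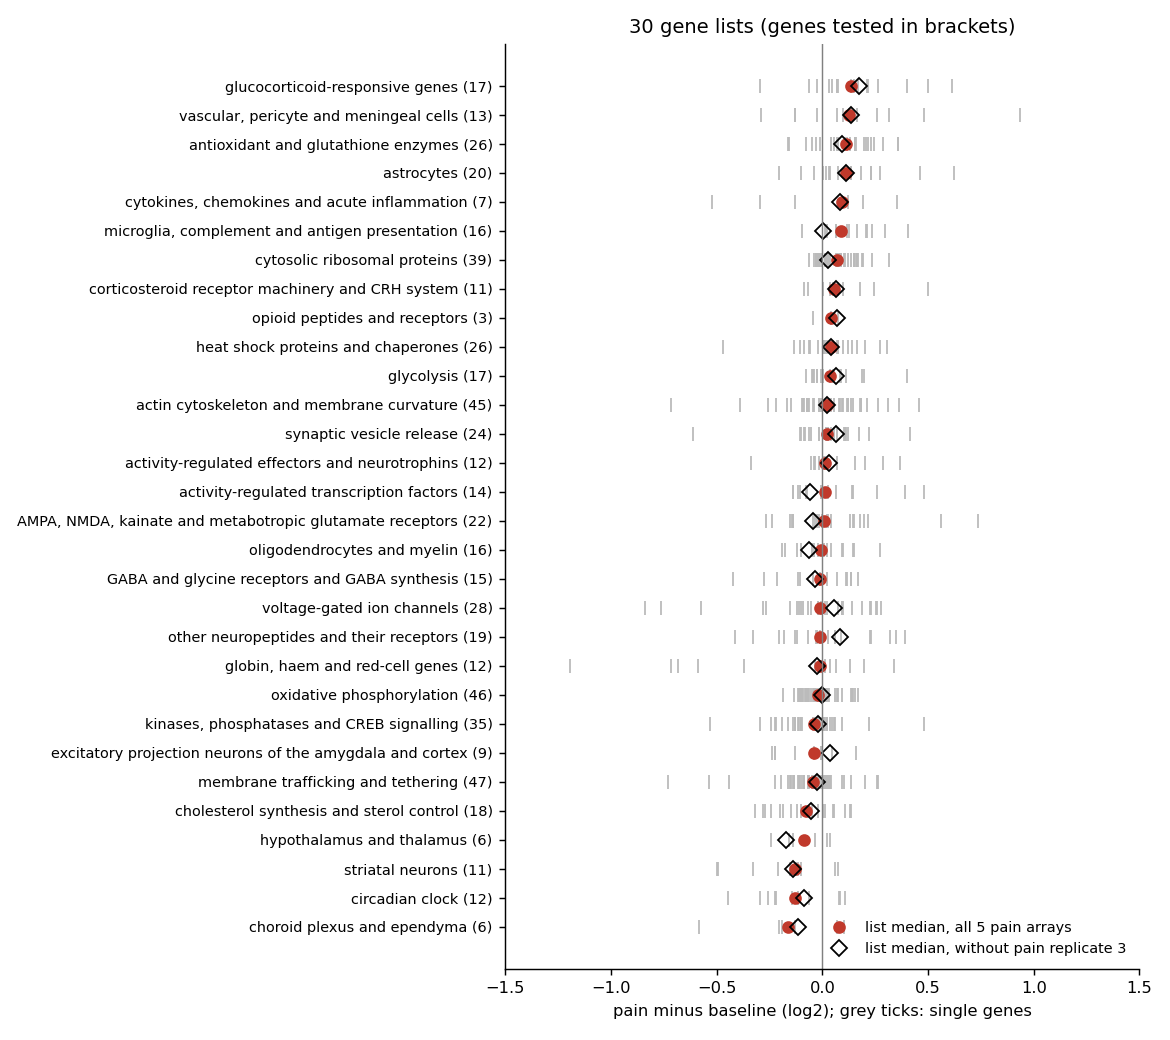
Pain minus baseline on the log2 scale for the tested genes of 30 lists (grey ticks), with the list median for all 5 pain arrays (red points) and without pain replicate 3 (open diamonds). Every list median lies within 0.2 of 0, and the microglial median is 0.09 with all arrays and 0.0050 without pain replicate 3.

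Pain was also set against the mean of conditioning, conditioning under isoflurane and isoflurane alone. This comparison shares its pain arrays with pain minus baseline. With limma 0 of 9520 probe sets passed (lowest adjusted p 0.128), and 972 (10.2%) were at unadjusted p under 0.05, 435 higher (4.57%) and 537 lower (5.64%). With pain replicate 3 left out they numbered 512 (5.38%).

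Hbb had its lowest group mean after pain among the 5 groups, but single arrays did not separate fully. Replicate 1 of conditioning under isoflurane, at 10.66, lay within the pain range of 10.21 to 10.91. Group means of Hbb were 10.7 after pain, 11.7 after conditioning, 11.5 after conditioning under isoflurane, 11.7 after isoflurane and 11.9 at baseline. Pain minus the other treated groups was -0.91. For Epb41 that difference was -0.65, for Ppp1r18 -0.75 and for Gpsm2 -0.77. All 12 lower genes had unadjusted p under 0.05 in this comparison, and 6 of the 12 higher genes did, beside 10.2% of all probe sets. Both counts use all 5 pain arrays, which are shared with pain minus baseline, so they are a description. For Trappc8 the pain mean without replicate 3 was 8.27. Conditioning, conditioning under isoflurane and isoflurane gave 8.31, 8.41 and 8.47, and baseline gave 8.76. For Epb41 the pain mean without that array was 6.90, against 7.49, 7.47 and 7.57 in the other treated groups in that order.

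Fkbp5 and P2rx6 stood closer to the other treated groups. Fkbp5 averaged 8.94 after pain, 8.73 after conditioning, 8.67 after conditioning under isoflurane, 8.87 after isoflurane and 8.44 at baseline, and pain minus the other treated groups was 0.18 (unadjusted limma p 0.122). P2rx6 averaged 7.80 after pain, 7.77 after conditioning, 7.58 after conditioning under isoflurane, 7.68 after isoflurane and 7.10 at baseline, with a difference of 0.12 (unadjusted limma p 0.472). Fam98c averaged 9.02 after pain against 8.48, 8.66 and 8.63 in the other treated groups in that order and 8.54 at baseline, a difference of 0.43 from the treated groups. Txnip differed from the other treated groups by 0.15 and Park7 by 0.14.

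**Figure D5:**
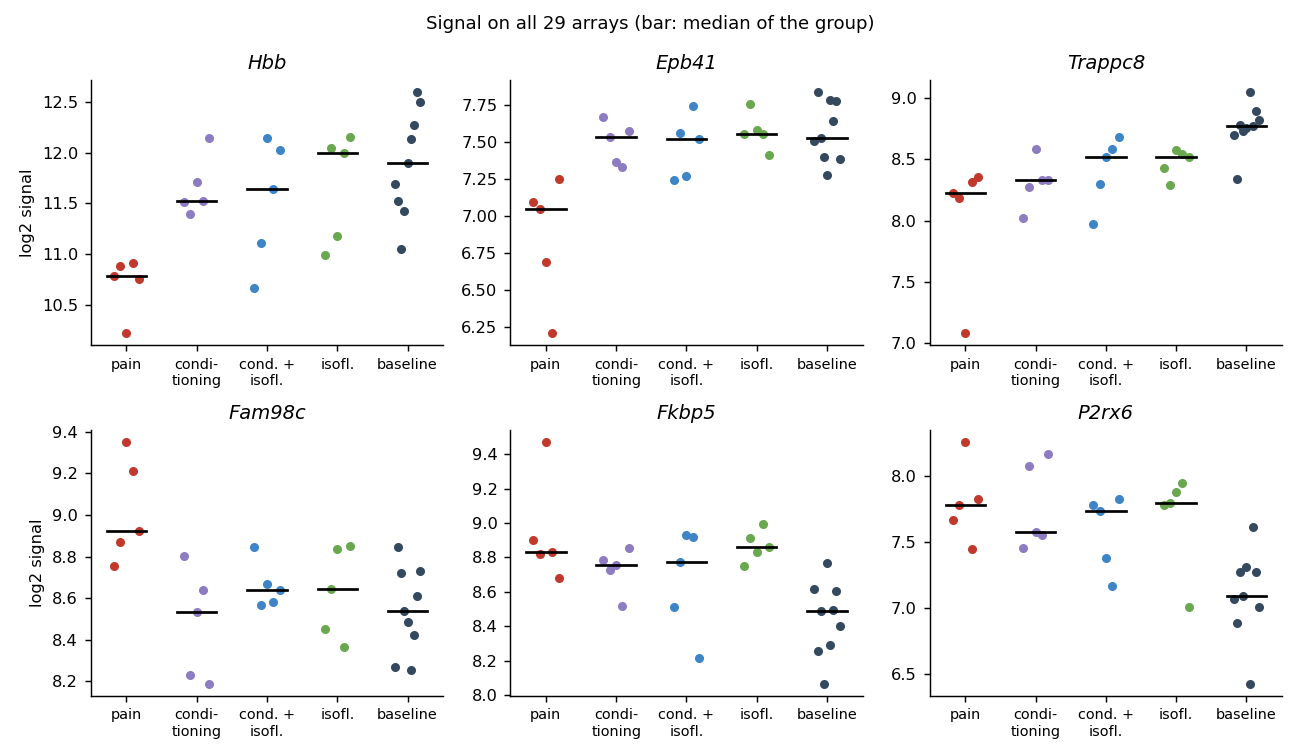
Log2 signal on all 29 arrays for 6 of the leading genes, by group, with the median of each group as a bar. In Hbb and Epb41 the pain median lies below those of the 4 other groups, whereas in Fkbp5 and P2rx6 the 4 treated groups all have medians above that of baseline.

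Control probe sets gave 20 ratios of 3 prime to 5 prime signal, of which only those of Gapdh, beta-actin and hexokinase measure rat RNA. The remaining ratios belong to added control transcripts and do not measure the RNA quality of the tissue. In an exact two-sided permutation test over the 14 arrays 0 ratios passed (lowest adjusted p 0.764). For Gapdh pain minus baseline was -0.09 on the log2 scale (unadjusted permutation p 0.205). It was -0.09 for beta-actin (unadjusted permutation p 0.382) and 0.05 for hexokinase (unadjusted permutation p 0.775).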

How the data were processed

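The values are the authors' deposited signal intensities from 1-colour rat expression arrays, linear and scaled so that the mean of each array, with the lowest and highest 2% left out, is near 500.1. Per the labels, RNA came from basolateral amygdala. The 57 control probe sets were used for the control ratios only. Of the 15866 other probe sets, 12783 have 1 gene symbol in the platform annotation, 312 several and 2771 none.

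Arrays were quantile normalized (range of log2 medians 0.472), floored at 16 and put on the log2 scale. The 9520 probe sets with a mean at or above the 40th percentile (7.26) were fitted with limma 3.58.1 in R 4.3.3, using 1 mean per group over all 29 arrays, a trend of variance on signal and Benjamini-Hochberg adjustment. Named genes are the 12 higher and 12 lower with the lowest p, the 5 largest differences each way at unadjusted p under 0.05, a fixed set, and up to 4 members of each of 30 lists. Members and lists were chosen with earlier results of these data known. A gene on a list counts by its brightest probe set, a leading gene by its lowest-p one. The scripts were tested on simulated data. Same-numbered pain and baseline arrays had deviations correlated at -0.09 to 0.14 and were not paired in the main fit. These correlations cannot show whether such arrays were handled together. Alternatives varied the scaling, filter, floor, variance model and arrays used, and 4 that combine settings with leaving out pain replicate 3 were added after the data were seen.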

Additional observations from a re-analysis of the deposited data

Results flagged for a closer look

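An array was picked out where its distance to the nearest array of its group was large against the range of the group (Dixon's test), in 17 of 128 groups checked. Chance gives about 1 in 20 for groups not chosen by their values. Many genes checked were chosen for low p or large differences on these arrays, so that rate does not apply to them. Of the 17, 9 are pain replicate 3, 1 is another pain array and 7 are baseline arrays.

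Pain replicate 3 had the highest median signal of its group (292.2), the lowest mean correlation with other arrays (0.906) and the largest root mean square deviation from its group mean (0.446). It was far above the other pain arrays in Fkbp5 (9.47) and Fosb (7.61). It was far below them in Hbb (10.21), Trappc8 (7.08), Dmap1 (4.00) and Bysl (4.00), the last pair at the signal floor. Per1, which is below the signal filter, was high on pain replicate 2 (7.42).

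Among the baseline arrays, replicate 1 was low in Arfgap1 (8.30), Xab2 (7.15) and Dmap1 (6.23). Replicate 2 was low in Trappc8 (8.34), replicate 4 in Sepsecs (6.08), replicate 7 in Oprk1 (6.50) and replicate 9 in Fosb (5.67).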

How the results depend on the processing

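With limma, pain minus baseline had 0 probe sets past the threshold with all arrays, and in most alternatives. It had 10 with arrays centred on their medians (all lower, where 26.7% of probe sets were above 0 against 49.2% with quantile normalization), 4 with the filter at the 70th percentile, 160 against baseline replicates 6 to 9 alone (84 higher, 76 lower) and 0 against replicates 1 to 5 alone. Against replicates 6 to 9 without pain replicate 3 it had 56. Leaving out single arrays gave 0 to 6: 2 without pain replicate 4, 6 without baseline replicate 3, 5 without baseline replicate 4. Unadjusted counts ran from 343 to 1766. Pain minus the other 3 treated groups gave 2 without a filter, 1 with array weights, and 0 to 4 on leaving out single arrays (1 without pain replicate 1, 4 without pain replicate 4).

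The replicate block over replicates 1 to 5 left 0 past the threshold (lowest limma adjusted p 0.651), with 476 at unadjusted p under 0.05. Same-numbered arrays correlated from -0.09 to 0.14, and fewer arrays entered that fit. All 24 leading genes kept their direction in all settings that tested them, which share arrays with the fit that chose them. The difference of Bysl reversed to 0.0613 without pain replicate 3 against baseline replicates 1 to 5. Single-gene calls were gained in 28 cases. The causes were not tested. Probe sets below the filter were not tested, and the number of arrays limits the precision.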
